A study of Mus musculus with 9 samples.

Results

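The 3 control libraries described here, of 9 in the series, were made from D2A1-d cells that had been transduced with a non-targeting control hairpin, abbreviated NTC. They were taken by their group label alone, with no use of the measured values, and are called NTC libraries 1, 2 and 3 after the replicate numbers in the labels. D2A1-d is a murine breast carcinoma line, grown here in medium with fetal bovine serum and antibiotics, and its labels read genotype WT and treatment Untreated. The other 6 libraries carry hairpins against Med4, a Mediator subunit, and were not used. D2A1-d cells are used as a model of metastatic dormancy, but the RNA came from cells in culture. The labels number the libraries as biological replicates without saying whether they were separate transductions or separate dishes, so the spread given here is that between these libraries.

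Mammary carcinomas arise from epithelium, whose cells are held together by E-cadherin junctions and carry paired keratin filaments. Carcinoma cells can lose those features and take on mesenchymal ones, such as vimentin filaments and a fibronectin and collagen matrix, under transcription factors of the Snail, Zeb and Twist families. Dormant tumour cells are held back from growth by signals of the surrounding matrix, cytokines and stroma, so the receptors, matrix proteins and secreted factors that such cells make are the usual starting point for asking what they can send and receive.

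The NTC libraries held 7899445, 7572114 and 7985289 reads assigned to genes. Levels are given as CPM, the reads of a gene divided by all gene-assigned reads of its library and scaled to 1000000. Where genes are compared with each other the level is CPM per kilobase of exon, called the per-length level. Means are given ± SD over the 3 libraries (n = 3). A gene is called expressed at 1 CPM or more in each of the 3 libraries, silent at 0 reads in all 3, and trace in between. A count of 0 over the 23456848 reads allows a level of up to 0.128 CPM, counting error only. The 3 libraries correlated at 0.9939 to 0.9948 (Pearson, log2 scale, across genes, which are not independent replicates), and each pair differed by more than counting error, with a chi-square per degree of freedom of 1.69 to 2.5. Med4 itself (chromosome 14, 73510025 to 73518849, GRCm38) stood at 29.9, 28.5 and 25.6 CPM.

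Of 55335 gene identifiers 13799 were expressed (24.9%) and 30419 were silent (55.0%). Of 21899 protein-coding genes 11273 were expressed (51.5%) and 6895 were silent (31.5%), and these 2 shares are the background for the lists below. The lists were chosen with earlier results of these data known. Protein-coding genes took 96.0% of the gene reads. The largest class of expressed protein-coding genes lay at 10 to under 100 CPM, with 6866 genes and 29.5% of the reads. A smaller class of 2313 genes at 100 to under 1000 CPM took 49.9%, and 68 genes at 1000 CPM or more took 15.5%. The median expressed protein-coding gene had a per-length level of 8.44, the 90th percentile was 39.3 and the 99th was 233.

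**Figure D1:**
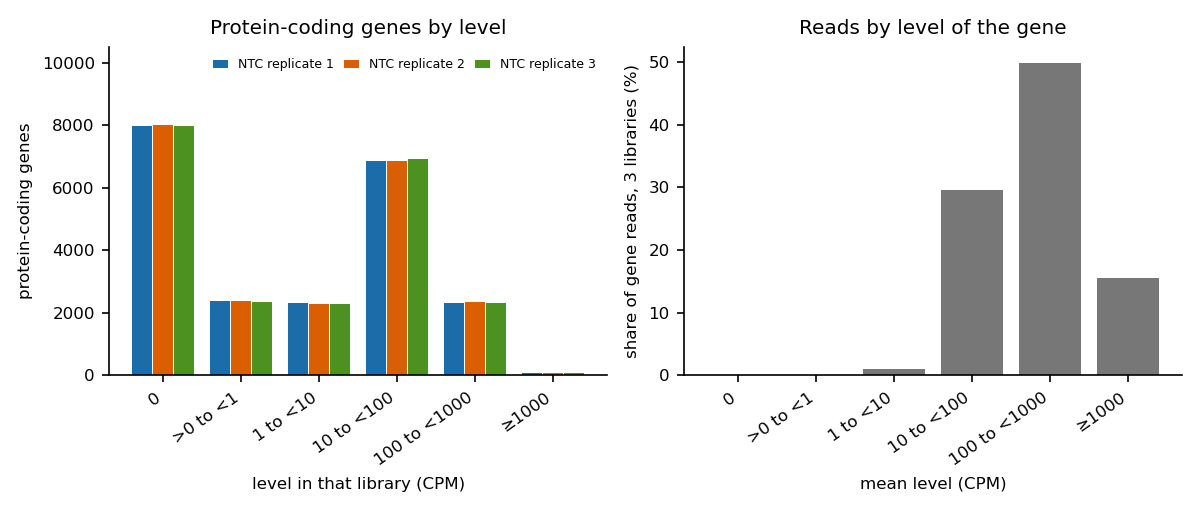
Left, number of protein-coding genes (y axis) by level in CPM (x axis) in each NTC library, with 1 bar per library. Right, share of gene reads in percent over the 3 libraries by mean level. The 2313 genes at 100 to under 1000 CPM hold 49.9% of the reads, and the 3 libraries have bars of nearly the same height in every class.

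The transcriptome was led by mitochondrially encoded genes, translation factors, chaperones and the cytoskeleton. The mitochondrially encoded genes took 4.43, 4.58 and 4.54% of gene reads in the 3 libraries. mt-Co1, a cytochrome oxidase subunit, was the gene with the most reads, at 13730, 14220 and 14040 CPM. Eef1a1 (chromosome 9, 78478449 to 78489151), which brings aminoacyl-tRNA to the ribosome, came next at 9010, 9100 and 9816 CPM and was highest in library 3. Among the 20 genes with the most reads were also the cytosolic chaperones Hsp90ab1 (4892 ± 108 CPM) and Hsp90aa1 (2734 ± 182 CPM) and the endoplasmic reticulum chaperones Calr (4604 ± 93.3 CPM), Hsp90b1 (3005 ± 152 CPM) and Pdia3 (2439 ± 66.9 CPM). The iron store Fth1 had 3724 ± 220 CPM, Actb 2921 ± 63.9, the actin cross-linker Flna 2580 ± 59.2, Eef2 2711 ± 143, the poly(A)-binding protein Pabpc1 2414 ± 24.7 and the glycolytic enzyme Pkm 2078 ± 65.9. Fn1 and Serpinh1 are the 2 matrix genes in that group of 20, and both are described with the matrix. Reads placed at more than 1 position went uncounted, and genes with near-identical copies, among them mitochondrial and ribosomal protein genes, are uncertain.

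Per length, the order changed toward short transcripts. Lgals1, a small secreted galectin listed as a mesenchymal marker, had a per-length level of 1797 ± 68.4, above Hsp90ab1 at 1631 ± 35.9 and Calr at 1599 ± 32.4. B2m, the light chain of MHC class I, stood at 1182 ± 78.1, the ribosomal protein Rplp1 at 1626 ± 89.7 and the nuclear protein Ptma at 1144 ± 18.4. Rpl23a was also among the 20 highest, but 59.74% of its exons overlap a gene on the other strand. The 10 genes with the most reads held 6.36 ± 0.12% of all gene reads, the 50 with the most 13.6 ± 0.069%, and the 1000 with the most 47.7 ± 0.1%. By class, cytosolic ribosomal proteins took 3.5 ± 0.13% and proteasome subunits 0.513 ± 0.0075%. Genes whose symbols begin with Eef or Eif and a number, which include the translation factors, took 2.62 ± 0.052%. Those beginning with Hsp, which include heat shock proteins but also the proteoglycan Hspg2, took 1.99 ± 0.085%. The 30 Mediator subunit genes named Med and a number were all expressed and together took 0.133 ± 0.0025%. Mediator subunits with other symbols were not counted in this class.

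Most of the epithelial markers that a breast carcinoma could carry were at or near 0 in these cells. Of 42 luminal and epithelial markers 9 were expressed (21.4%, against 51.5% of all protein-coding genes), 16 were trace and 17 were silent. Cdh1 (E-cadherin, chromosome 8, 106603351 to 106670246), Epcam, Cldn4, Crb3 and Kit had 0 reads in all 3 libraries, as did the luminal keratin Krt19. The epithelial splicing regulator Esrp1 and the transcription factors Ovol2, Ehf and Elf5 were silent too. The milk genes Csn2, Wap, Lalba and Ltf and the hormone receptors Pgr and Prlr had no read, and Esr1 had 1 read in library 3 only.

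What remained of the luminal programme was uneven. Krt18 stood at 20.2, 20.6 and 21.7 CPM and its filament partner Krt8 at 3.67, 4.49 and 3.88 CPM, from 29, 34 and 31 reads. Both keratins were within a narrow range in the 3 libraries, with Krt18 above Krt8 in each. Of 53 protein-coding genes with the symbol stem Krt 4 were expressed and 38 were silent. Cd24a, a surface glycoprotein also found on other cell types, was the highest of the list at 157, 158 and 163 CPM. The junction plakoglobin Jup had 9.97 ± 0.70 CPM, and the transcription factors Elf3 and Foxa1 10.2 ± 1.5 and 2.06 ± 0.62. Esrp2 was expressed at 10.1 ± 1.2 CPM while Esrp1 was at 0, and Grhl2 and Gata3 were trace at 0.978 ± 0.17 and 0.8998 ± 0.25 CPM. The mucin Muc1 was barely above the limit at 1.52, 1.72 and 1.38 CPM.

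Promoters were examined because Snail and Zeb family proteins bind the E-box CAGGTG, which reads CACCTG on the other strand. In the RefSeq table for GRCm38.p6, 16512 of 21899 protein-coding genes had a promoter window, and the 250 bases before the start were searched on both strands. The motif was in 2739 of these windows (16.6%). It was in 17 of the 31 luminal and epithelial markers with a window (54.8%), in 1 of 18 mesenchymal markers (5.56%), and in 1 of 31 cell cycle genes (3.23%). Other lists lay above 16.6% too, among them integrins (5 of 18, 27.8%), chemokine receptors (5 of 19, 26.3%) and basal and myoepithelial markers (2 of 8, 25.0%). Others lay below it, among them endothelial markers (0 of 7) and Hox genes (0 of 22). Among the luminal markers it was in 6 of the 7 expressed and 6 of the 13 silent genes. The upstream windows of 3 luminal markers and 2 mesenchymal genes are shown as examples of windows with and without the motif, chosen with their levels known. They lie at chr17:87635729-87635978 (plus strand) for Epcam, chr5:134946935-134947184 (minus strand) for Cldn4, chr3:89228806-89229055 (plus strand) for Muc1, chr2:102901666-102901915 (minus strand) for Cd44 and chr12:33957421-33957670 (plus strand) for Twist1. Each is printed in the direction of transcription and ends at the base before the start. Capitals mark CAGGTG or CACCTG, and in Muc1 also a TATAAA between 45 and 16 bases before the start.
Epcam: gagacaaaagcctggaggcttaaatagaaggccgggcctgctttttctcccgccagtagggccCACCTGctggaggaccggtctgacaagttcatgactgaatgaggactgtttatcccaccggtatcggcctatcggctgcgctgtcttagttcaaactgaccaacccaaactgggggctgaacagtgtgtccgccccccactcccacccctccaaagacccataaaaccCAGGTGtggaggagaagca
Cldn4: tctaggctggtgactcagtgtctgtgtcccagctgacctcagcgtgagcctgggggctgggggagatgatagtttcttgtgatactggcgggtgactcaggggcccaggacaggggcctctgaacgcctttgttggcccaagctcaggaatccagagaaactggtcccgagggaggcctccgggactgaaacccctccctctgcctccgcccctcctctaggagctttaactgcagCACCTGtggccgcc
Muc1: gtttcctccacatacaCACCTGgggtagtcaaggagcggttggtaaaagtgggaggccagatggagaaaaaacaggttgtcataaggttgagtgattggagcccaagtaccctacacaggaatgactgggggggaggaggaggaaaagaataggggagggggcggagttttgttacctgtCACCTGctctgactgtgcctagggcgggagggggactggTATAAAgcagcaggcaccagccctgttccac
Cd44: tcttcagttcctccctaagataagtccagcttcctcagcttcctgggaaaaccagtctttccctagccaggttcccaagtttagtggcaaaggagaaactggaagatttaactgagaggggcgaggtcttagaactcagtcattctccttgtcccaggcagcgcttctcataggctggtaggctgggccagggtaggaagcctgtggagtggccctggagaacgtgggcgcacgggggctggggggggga
Twist1: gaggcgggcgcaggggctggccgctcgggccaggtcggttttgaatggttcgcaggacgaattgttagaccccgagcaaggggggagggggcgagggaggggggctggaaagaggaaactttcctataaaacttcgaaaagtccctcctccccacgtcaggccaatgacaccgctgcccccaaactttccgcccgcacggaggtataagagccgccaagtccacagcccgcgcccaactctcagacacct
The silent genes Epcam and Cldn4 hold 2 and 1 matches, the weakly expressed Muc1 holds 2, and Cd44 and Twist1 hold 0. A match is a run of letters and not a measured binding site, and binding was not measured here.

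Basal and myoepithelial markers were mixed. Of 20 genes 7 were expressed, 10 were trace and 3 were silent. The expressed and the silent share both lay below those of all protein-coding genes, 51.5% and 31.5%. Of the 5 basal keratins none was expressed: Krt14, Krt6a and Krt15 had 0 reads, Krt5 1 read in library 1 and Krt17 5 reads in library 3. The basal regulator Trp63 was trace at 0.506, 1.58 and 0.751 CPM and Sox10 had 2 reads. The contractile genes Acta2 and Mylk were expressed at 216 ± 12.1 and 44.2 ± 3.3 CPM. These are genes of smooth muscle and of activated fibroblasts as well as of myoepithelium, and the myoepithelial Cnn1 and Myh11 were trace. Tagln was at 10.5 ± 1.3 CPM, but 68% of its exons overlap another gene's on the other strand. The hemidesmosome integrin chains Itga6 and Itgb4 stood at 15.4 ± 0.88 and 3.44 ± 1.0 CPM, and the laminin chain Lamb3 at 11.8 ± 1.1 CPM.

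Most mesenchymal markers were expressed: 24 of 29 were expressed (82.8%, against 51.5%), 4 were trace and Fap was silent. Their summed level was 10300 to 11000 CPM, against 231 to 234 CPM for the 42 luminal and epithelial markers. Vim (chromosome 2, 13573927 to 13582826), the intermediate filament of mesenchymal cells, stood at 1955, 2009 and 2003 CPM. Within each library its per-length level was 185 to 220 times that of Krt8 and 28.0 to 29.5 times that of Krt18. Cd44, a hyaluronan receptor, had 252, 254 and 244 CPM, and the receptor kinase Axl 507, 539 and 555 CPM. The values of Vim and Cd44 in the 3 libraries lay close together, and Axl was lowest in library 1. All 8 listed transcription factors were expressed. Per length, Twist1 was highest at 60.4 ± 2.6, then Snai1 at 34.0 ± 4.3 and Snai2 at 24.6 ± 2.1, and the libraries of these 3 genes did not overlap. Zeb1 (4.38 ± 0.12), Tcf4 (3.56 ± 0.20) and Zeb2 (3.44 ± 0.29) followed, and Twist2 (0.905 ± 0.27, with 47% antisense overlap) and Prrx1 (0.786 ± 0.22) were last, with overlapping values. Among cadherins, Cdh11 was expressed at 43.0, 47.3 and 40.3 CPM, while Cdh2 (N-cadherin) was trace with 1, 2 and 4 reads. Against the upper limit that the 0 reads of Cdh1 allow over the 3 libraries, the per-length level of Cdh11 was at least 175-fold higher, and that of Zeb1 was at least 216-fold higher than Esrp1.

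**Figure D2:**
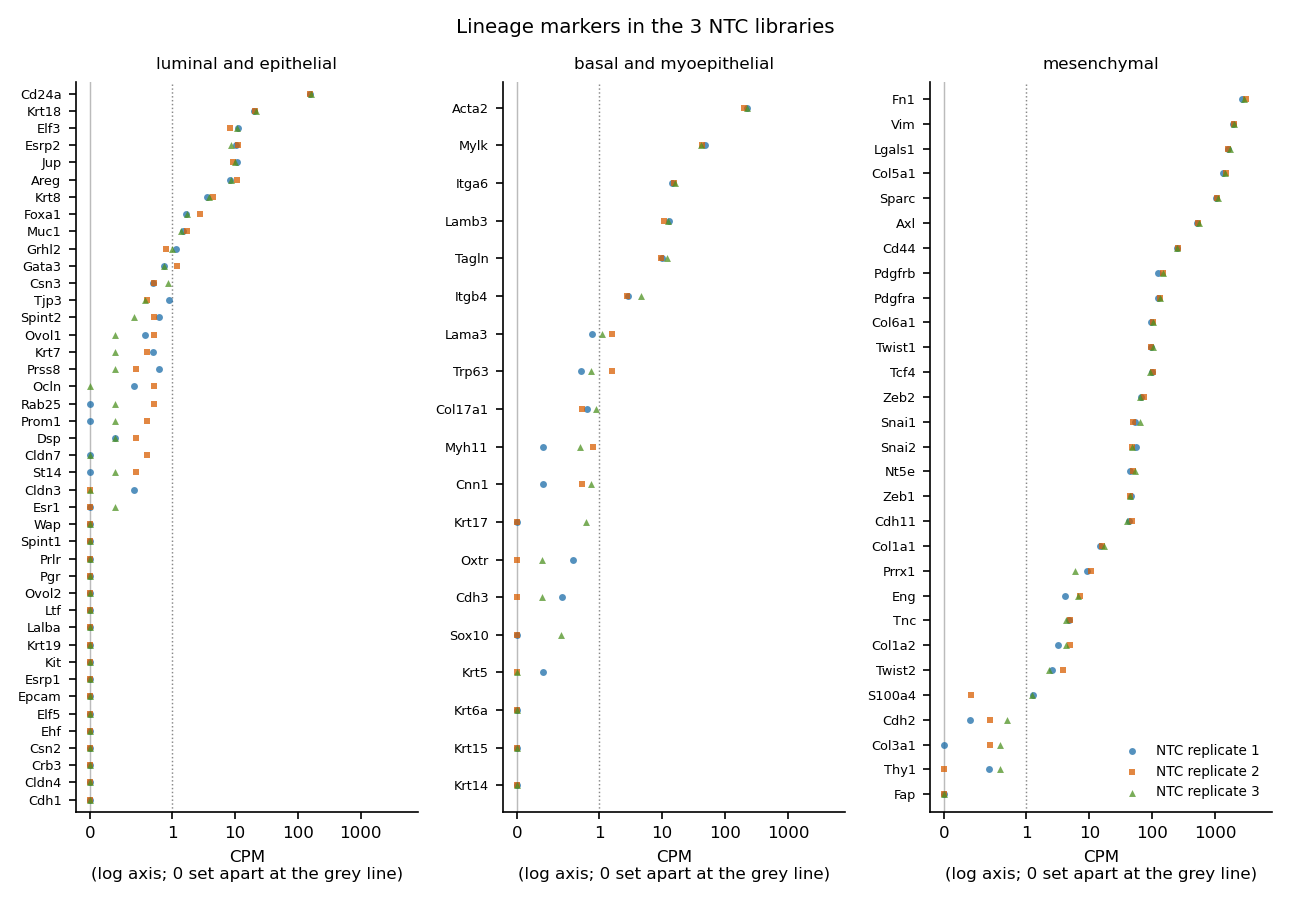
Level in CPM (x axis, log scale with 0 set apart at the grey line) of the luminal and epithelial, basal and myoepithelial (1 not shown), and mesenchymal markers (y axis) in the 3 NTC libraries, with 1 point per library. The dotted line is 1 CPM. Of the luminal markers 9 of 42 and of the mesenchymal markers 24 of 29 lie at or beyond it in every library.

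Markers of other cell types ranged from abundant to absent. In bulk RNA, fewer cells of a type and less RNA per cell cannot be told apart. Of 16 stromal fibroblast markers 8 were expressed, a share close to the 51.5% of all protein-coding genes, with a summed level of 1050 to 1230 CPM, of which the complement protein C3 made up most at 733, 875 and 851 CPM. The matrix glycoproteins Fbln2 and Fbln1 had 258 ± 12.2 and 36.9 ± 3.7 CPM, Ogn 22.2 ± 4.3, Has2 9.23 ± 1.2, Cxcl12 2.12 ± 0.55, Postn 1.59 ± 0.80 and Pi16 1.15 ± 0.033 CPM. Other fibroblast genes were at or near 0: Dpt and Dpp4 had no read and Dcn and Lum 1 read each over the 3 libraries. Of 20 leukocyte markers 6 were expressed (30.0%, against 51.5%), summing to 138 to 166 CPM. Most of that was Cd14, a co-receptor for bacterial lipopolysaccharide, at 122, 112 and 134 CPM. The pan-leukocyte genes did not accompany it: Ptprc (CD45) had 1, 1 and 4 reads, Laptm5 and Coro1a were trace, and Cd52 was silent. These 4 genes summed to 0.633, 1.19 and 2.25 CPM, highest in library 3, and the 6 lymphoid genes to 2.03, 2.11 and 1.75 CPM. Csf1r stood at 10.6, 10.4 and 10.6 CPM, S100a8 at 4.29 ± 1.2, Cd68 at 4.95 ± 0.62, Lyz2 at 3.83 ± 2.2 and Cd79a at 1.71 ± 0.40, while Itgam had 1 read and S100a9 and Cd3e none. Of 10 endothelial markers Flt1 alone was expressed, at 2.13 ± 0.33 CPM, and the list summed to 3.43 to 4.26 CPM. None of 8 adipocyte markers was expressed. Of 24 markers of muscle, nerve, liver, gut, lung, thyroid and germ line, Des and Tubb3 were expressed at 4.04 ± 0.31 and 3.71 ± 0.54 CPM and 15 were silent.

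Receptor tyrosine kinases, the surface receptors for growth factors, were expressed by 26 of 58 genes (44.8%, against 51.5% of all protein-coding genes). Of the others 17 were trace and 15 were silent. Per length, Axl was the highest of all 58 at 106 ± 4.8, above Ryk, a Wnt co-receptor, at 49.0 ± 0.64 and the ephrin receptor Epha2 at 44.6 ± 1.3. The collagen receptor Ddr2 followed at 39.6 ± 1.3, with its relative Ddr1 at 19.9 ± 0.81. Ptk7 had 28.6 ± 1.4, Pdgfrb 25.5 ± 2.4, the HGF receptor Met 18.9 ± 0.61, Pdgfra 13.0 ± 0.47, Fgfr1 10.8 ± 0.33 and Igf1r 6.42 ± 0.30. Pdgfrb exceeded Pdgfra in every library, with a Pdgfra to Pdgfrb ratio per length of 0.491 to 0.55. Of the 4 EGF receptor genes only Erbb2 was expressed, at 40, 44.9 and 47.2 CPM. Egfr had 0, 2 and 3 reads, Erbb3 was trace at 0.684 ± 0.094 CPM and Erbb4 had 1 read. Of 14 Eph receptors 6 were expressed and 7 were silent, among them Epha3, Epha4, Epha5, Epha6, Epha7 and Epha8. Of the VEGF receptors of blood vessels Flt1 was expressed, while Flt4 was silent and Kdr had 1 read. The vessel receptor Tie1 and the neurotrophin receptor Ntrk2 were silent.

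Receptors of the TGF-beta and BMP family, which signal through Smads, were expressed by 13 of 16 genes (81.2%, against 51.5% of all protein-coding genes). Per length, Bmpr1a led the type I receptors at 24.5 ± 0.36, and Acvr1 (13.9 ± 0.92) and Tgfbr1 (13.2 ± 1.0) overlapped below it. In CPM these 3 stood at 154, 158 and 155, at 62.4, 67.8 and 71.3 and at 87.5, 92.0 and 79.0 in the 3 libraries, and Acvr1c and Bmpr1b were silent. Among type II receptors Bmpr2 (8.002 ± 0.16) and Tgfbr2 (7.90 ± 0.22) were level with each other per length and above Acvr2a (4.38 ± 0.36). The co-receptor Tgfbr3 stood at 78.0 ± 3.9 CPM and Eng at 5.85 ± 1.6. The activin type I receptor Acvr1b stood at 30.9, 35.7 and 33.9 CPM. A complete pair of type I and type II chains was thus present for TGF-beta, activin and BMP ligands, at the RNA level.

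Of 39 cytokine and death receptors 26 were expressed (66.7%, against 51.5% of all protein-coding genes). Il6st (gp130, the shared signalling chain of the IL-6 family) stood at 253, 280.4 and 272 CPM. Per length it was 24.2 ± 1.2, above the ligand-specific chains Il6ra at 4.12 ± 0.38, Il11ra1 at 2.39 ± 0.27, Osmr at 1.03 ± 0.12 and Lifr at 0.388 ± 0.021. All 4 interferon receptor chains were expressed, with per-length levels from 13.5 ± 0.66 for Ifngr2 to 20.3 ± 1.4 for Ifnar1. In the TNF receptor family Tnfrsf12a, the receptor for TWEAK, stood at 204.6, 184 and 204 CPM. Per length it was highest at 102 ± 5.9, above Ltbr at 39.2 ± 0.92, Tnfrsf1b at 35.1 ± 3.0 and Fas at 33.2 ± 1.9, and Ngfr had no read. Of the receptors for pituitary-type hormones and haematopoietic factors, Ghr stood at 29.1 ± 3.1 CPM and Prlr and Csf2ra were silent. Chemokine receptors were sparse: 5 of 23 were expressed, a share of 21.7%, against 51.5% of all protein-coding genes. The scavenging receptor Ackr3 was the highest at 26.3, 32.5 and 35.1 CPM, and Cxcr1, Cxcr3, Cxcr4, Ackr1, Ccr3 and Ccr6 had no read.

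Notch, Wnt, Hedgehog and guidance receptors were expressed by 20 of 29 genes (69.0%, against 51.5% of all protein-coding genes). Notch2 stood at 184, 189 and 180.3 CPM, and per length at 17.1 ± 0.41, against 2.60 ± 0.27 for Notch4 and 0.107 ± 0.030 for Notch1. The Wnt receptor Fzd7 had 114 ± 6.7 CPM and the co-receptor Lrp6 144 ± 6.2, and the Hedgehog receptors Smo and Ptch1 had 163 ± 4.4 and 147 ± 4.2 CPM. Per length, the semaphorin receptors Plxnb2 (53.7 ± 2.5) and Nrp2 (39.7 ± 1.1) were the highest of the list, and Robo1 and Robo2 were silent.

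Integrins, the receptors for matrix, were expressed by 16 of 26 genes (61.5%, against 51.5% of all protein-coding genes), and 9 were trace. Itgb1, the common beta chain, stood at 1058, 985 and 972 CPM and was highest in library 1. Itgb5 had 409, 445 and 480 CPM and was highest in library 3. Per length, the alpha chains Itga3 (93.0 ± 4.3), Itga5 (38.1 ± 1.1) and Itgav (23.2 ± 1.9) were far above Itga1 (3.81 ± 0.28) and Itga6 (1.71 ± 0.097). The ratio of Itgb1 to Itgb4 per length was 361 to 625, and that of Itga5 to Itga6 was 20.7 to 24.5. The collagen-binding Itga2 had 3 reads, Itgb6 had 2 reads, and the leukocyte chain Itgax none. The chains of the laminin receptor alpha3-beta1, the fibronectin receptor alpha5-beta1 and the vitronectin receptor alphav-beta5 were thus the most abundant.

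**Figure D3:**
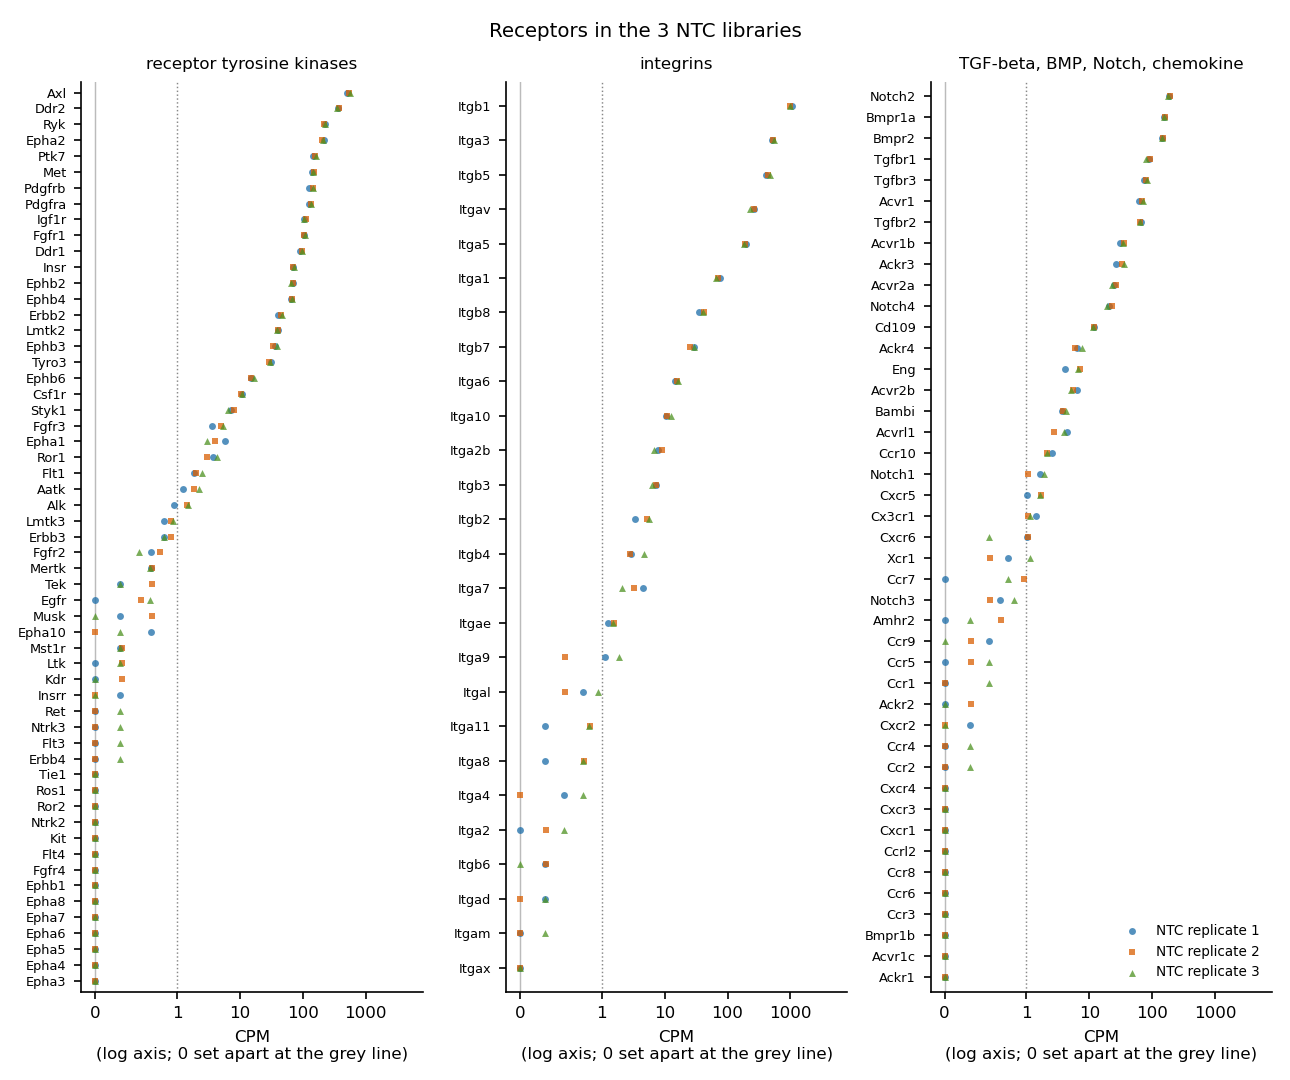
Level in CPM (x axis, log scale with 0 set apart at the grey line) of the receptor tyrosine kinases, the integrins, and the TGF-beta, BMP, Notch and chemokine receptors (y axis) in the 3 NTC libraries, with 1 point per library. The dotted line is 1 CPM. Axl leads the kinases, Itgb1 the integrins, and most chemokine receptors lie left of the line.

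Of 48 nuclear receptors, which are transcription factors switched by steroids, retinoids and lipids, 27 were expressed (56.2%, against 51.5% of all protein-coding genes). The glucocorticoid receptor Nr3c1 stood at 247, 264 and 250.2 CPM. Per length it was 33.0 ± 1.2, against 1.01 ± 0.11 for the mineralocorticoid receptor Nr3c2, the only other steroid receptor expressed, and Esr2 and Pgr had no read. The retinoic acid receptor Rarg had 143, 151 and 161 CPM and a per-length level of 35.6 ± 2.1, Rara had a per-length level of 8.93 ± 0.76, and Rarb was trace. Among orphan receptors Nr1d2, a repressor in the circadian clock, led per length at 23.4 ± 0.31.

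Matrix genes ranged from among the most abundant genes to silent ones. Of 106 structural matrix genes 57 were expressed (53.8%, close to the 51.5% of all protein-coding genes), 37 were trace and 12 were silent, and they summed to 14300 to 15400 CPM. Fn1 (chromosome 1, 71585520 to 71653200), the adhesive glycoprotein fibronectin, had the most reads of them at 2707, 3065 and 2912 CPM. It was lowest in library 1, and the range between libraries was wide against its counting error, with an observed variance of 86.19 times the counting variance. Per length, Spp1 (osteopontin) led at 771 ± 46.0, then Sparc at 282 ± 8.9, Fn1 at 248 ± 15.3 and Thbs1 (thrombospondin 1) at 206 ± 4.0. In CPM, Spp1 stood at 1190, 1281 and 1341 and Thbs1 at 1243, 1277 and 1229. Spp1 was lowest in library 1, and Thbs1 differed little between libraries.

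Collagens were expressed by gene, not as a class. Col5a1 was the highest of all collagens at 1352, 1508 and 1436 CPM, which is a per-length level of 169 ± 9.2. Its usual partner chain Col5a2 (chromosome 1, 45374321 to 45503282) was nearly absent, with 0, 4 and 4 reads. Type I collagen, the main collagen of fibroblasts, was low, with Col1a1 at 14.7, 15.7 and 16.9 CPM and Col1a2 at 3.17, 4.89 and 4.26 CPM, and Col3a1 had 0, 2 and 3 reads. The basement membrane collagens Col4a1 and Col4a2 stood at 594, 605 and 591 and 340.2, 335 and 326 CPM, Col4a5 at 98.9 ± 2.4, and Col4a3, Col4a4 and Col4a6 were trace. Per length, Col1a1 was 0.0281 to 0.0325 of Col4a1 within each library. Among other collagens, Col18a1 had a per-length level of 42.6 ± 2.6, Col8a1 42.4 ± 1.8, Col16a1 30.0 ± 0.49 and Col6a5 24.7 ± 0.49.

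Basement membrane laminins were also partial. Lamb1 stood at 620.5, 655 and 581 CPM, Lama5 at 390.3, 426 and 413 and Lamc1 at 191, 210.5 and 200.2, the chains of laminin-511. Lama1 and Lama4 were silent, and Lama2 had 2 reads. The proteoglycans Agrn and Hspg2 (perlecan) had 392 ± 20.7 and 356 ± 20.2 CPM. The nidogens, which link laminin to type IV collagen, were nearly absent, with 2 reads each for Nid1 and Nid2 over the 3 libraries. Among elastic fibre genes, Ltbp2, which binds fibrillin, led per length at 70.5 ± 1.9, with Efemp2 at 56.2 ± 2.8 and Ltbp3 at 41.1 ± 2.4, while Eln, Fbn2 and Fbln5 were silent. Fbn1 was at 5.64 ± 0.70 CPM, with 20% antisense overlap, and per length Fn1 was 502 to 569 times higher. Proteoglycans of connective tissue were low, with Bgn at 17.6 ± 2.0 CPM, Vcan at 13.7 ± 0.42 CPM and Dcn and Lum at 1 read each.

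Of 14 genes that fold, modify or cross-link collagen 12 were expressed (85.7%, against 51.5% of all protein-coding genes). Of the 14, 10 had a higher per-length level than Col1a1, while Loxl1, Loxl2, Lox and P4ha3 were below it. Col1a1 itself lay below the median of 8.44 over expressed protein-coding genes. Serpinh1, the collagen chaperone HSP47, stood at 2076, 2109 and 2131 CPM and P4hb, a subunit of prolyl hydroxylase, at 1258, 1265 and 1254 CPM. Their per-length levels were 862 ± 11.3 and 440.1 ± 1.8, against 2.40 ± 0.17 for Col1a1. The lysyl hydroxylase Plod2 had 499 ± 17.8 CPM and P4ha1 314 ± 6.4. Of 19 matrix metalloproteases 10 were expressed (52.6%, close to the 51.5% of all protein-coding genes). The membrane-bound Mmp14 stood at 196, 192 and 203 CPM and was highest per length at 33.1 ± 0.95, with Mmp10 at 21.7 ± 1.6, Mmp11 at 19.97 ± 0.99 and Mmp9 at 13.1 ± 1.4, and Mmp7 and Mmp16 were silent. Their inhibitor Timp2 stood at 673, 723 and 712 CPM and a per-length level of 180.4 ± 6.7, above all of them. Per length, Timp1 was 0.293 to 0.328 of Timp2, and Timp3 had 132 ± 4.6 CPM with 21% antisense overlap. The plasminogen activator Plau and its receptor Plaur stood at 21.04 ± 1.2 and 67.8 ± 4.3 CPM. Among cathepsins and their inhibitor, Cst3 (cystatin C) led per length at 449.6 ± 43.8, with Ctsz at 165 ± 6.2, Ctsl at 108 ± 2.6 (27% antisense overlap) and Ctsb at 84.1 ± 4.8.

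Secreted signalling factors were expressed by 86 of 243 genes (35.4%, against 51.5% of all protein-coding genes). Another 76 were trace and 81 were silent, where 31.5% of all protein-coding genes were silent. Igfbp4, which binds insulin-like growth factors, stood at 1572, 1602 and 1778 CPM and had the highest per-length level of the list at 374 ± 25.2. It was highest in library 3. The factors it binds were nearly absent, with 0, 1 and 2 reads of Igf1 and 0 of Igf2, and Igfbp1, Igfbp2, Igfbp3 and Igfbp5 were silent. Csf1, the growth factor of macrophages, stood at 848, 865 and 854 CPM, with little spread. The neutrophil-attracting chemokines Cxcl5 and Cxcl1 stood at 329.8, 326 and 332 and 112, 109 and 106 CPM, the monocyte-attracting Ccl2 at 39.4, 35.5 and 40.6 CPM and Cx3cl1 at 99.6 ± 10.4 CPM. In all, 13 of 37 chemokines were expressed (35.1%) and 14 were silent, and 11 of 31 interleukins and colony-stimulating factors were expressed (35.5%). Innate and acute phase proteins were led per length by Lcn2 (lipocalin 2) at 216 ± 12.9, C3 at 159 ± 14.8 and the complement protease C1s1 at 135 ± 12.2. Grn, the precursor of granulins, stood at 592 ± 28.7 CPM, Gdnf at 70.3 ± 1.8 and the guidance factor Ntn1 at 112 ± 1.5 CPM.

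Among growth factors of the TGF-beta superfamily 10 of 30 were expressed (33.3%, against 51.5% of all protein-coding genes). Tgfb1 stood at 77.0, 84.7 and 92.2 CPM, the activin chain Inhba at 112, 99.2 and 94.0, Tgfb3 at 34.6 ± 3.8 and Tgfb2 at 7.72, 7.13 and 5.51. Per length, Tgfb1 was 11.4 to 19.2 times Tgfb2. Most BMP ligands were absent or near 0: Bmp2, Bmp3, Bmp5 and Bmp7 were silent and Bmp4 had 3 reads. Vegfa had 249.5, 257 and 259 CPM, Vegfb 37.1 ± 4.4, Pgf 37.2 ± 2.2 and Pdgfa 58.0 ± 2.8, the last with 26% antisense overlap. Ligands of the EGF receptor were expressed by 8 of 11 genes, with Ereg (10.7 ± 0.67), Hbegf (10.2 ± 0.38) and Areg (7.67 ± 1.1) highest per length. Of 19 Wnt ligands Wnt7b and Wnt9a were expressed, at 6.56 ± 1.3 and 5.46 ± 0.34 CPM. All 10 listed secreted Wnt inhibitors were silent, against 31.5% of all protein-coding genes. Dkk1, Dkk2, Dkk3, Dkk4, Sfrp1, Sfrp2, Sfrp4, Sfrp5, Frzb and Wif1 had 0 reads in each library. This list does not hold every Wnt inhibitor and was chosen with earlier results of these data known. Of the prolactin family, Prl2c2 and Prl2c3 (proliferins) stood at 64.8 ± 6.4 and 19.6 ± 1.9 CPM and 11 of 17 members were silent. The proliferin genes are close copies, so the split between them is uncertain.

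**Figure D4:**
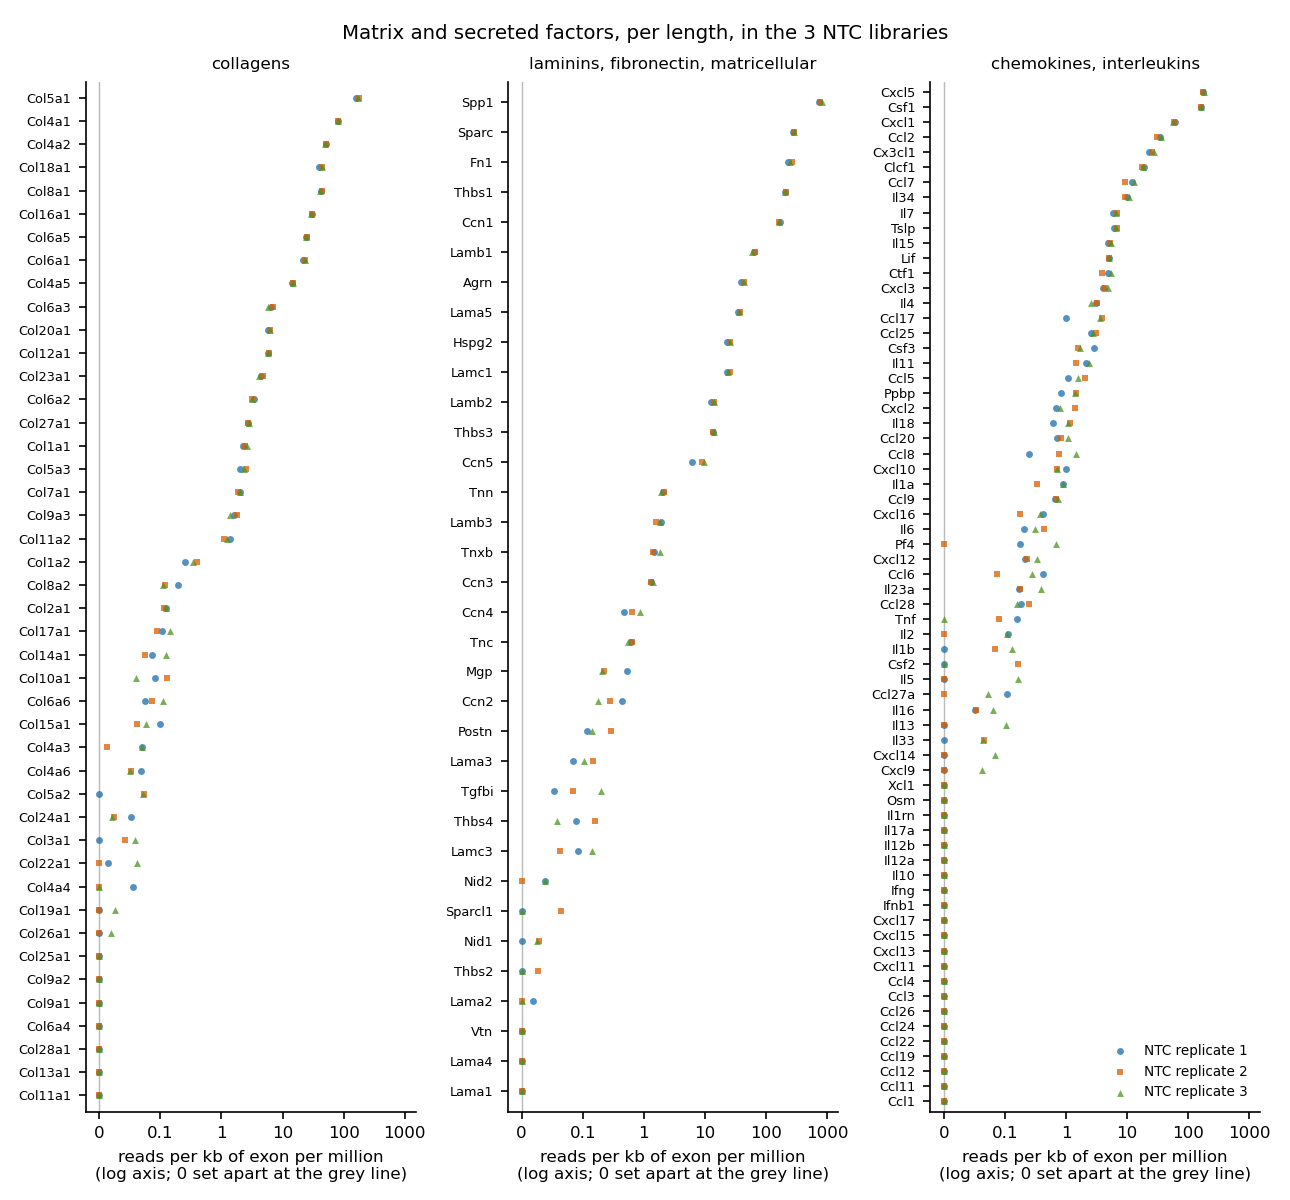
Per-length level (x axis, CPM per kilobase of exon, log scale with 0 set apart at the grey line) of collagens, of laminins, fibronectin and matricellular genes, and of chemokines, interleukins and colony-stimulating factors (y axis), with 1 point per NTC library. Col5a1, Spp1 and Cxcl5 lead the 3 panels, and the lowest genes of each panel sit at 0 in all libraries.

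Ligands and receptors were set side by side in 75 chosen pairs, which do not hold every partner of a receptor. Both partners were expressed in 34 pairs, which include Bmp1 with Bmpr2 although Bmp1 is a procollagen protease and not a receptor ligand, the ligand alone in 23, the receptor alone in 13 and neither in 5. The 3 pairs with the highest ligand among them, per length, were of matrix proteins: Spp1 with Cd44 (36.9 ± 0.80), Fn1 with Itga5, and Thbs1 with Cd47 (35.7 ± 1.7). Growth factor pairs with both partners expressed included Tgfb1 and Tgfbr2, Pdgfa and Pdgfra, Fgf2 and Fgfr1, Efna1 and Epha2, and Jag1 and Notch2. Csf1 at a per-length level of 162 ± 1.7 was paired with Csf1r at 1.83 ± 0.021.

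For several abundant ligands the receptor paired with them was not expressed. Cxcl5 and Cxcl1 had per-length levels of 177 ± 1.8 and 58.0 ± 1.8, and their receptor Cxcr2 had 1 read. C3 stood at 159 ± 14.8 and its receptor C3ar1 at 0.0782 ± 0.083, and Ccl2 stood at 33.8 ± 2.3 and Ccr2 had 1 read. Vegfa stood at 59.5 ± 1.1 beside the 1 read of Kdr, while its other receptor Flt1 (0.158 ± 0.024) and its co-receptor Nrp1 (7.31 ± 0.14) were expressed. Hbegf, Ereg and Areg were expressed beside the 5 reads of Egfr. Axl was expressed while its ligand Gas6 had 1, 2 and 3 reads. Pros1, paired here with the Axl relative Tyro3, was expressed at 19.4 ± 1.9 CPM. As with Axl, Met was expressed with Hgf at 0.856 ± 0.22 CPM, Igf1r with Igf1 trace and Tnfrsf1a with 3 reads of Tnf. Bmpr1a, Lrp6 and Itgav were expressed without their listed partners Bmp4, the inhibitor Dkk1 and Vtn, but other partners were expressed: Bmp6 (1.79 ± 0.66 CPM), Wnt7b and Wnt9a, and Fn1 and Spp1. Neither partner was expressed for Wnt5a and Ror2, Vegfc and Flt4, Il33 and Il1rl1, and Ptn and Ptprz1, among others. These pairs record RNA of the cells alone, and serum in the medium can bring ligands that were not measured.

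**Figure D5:**
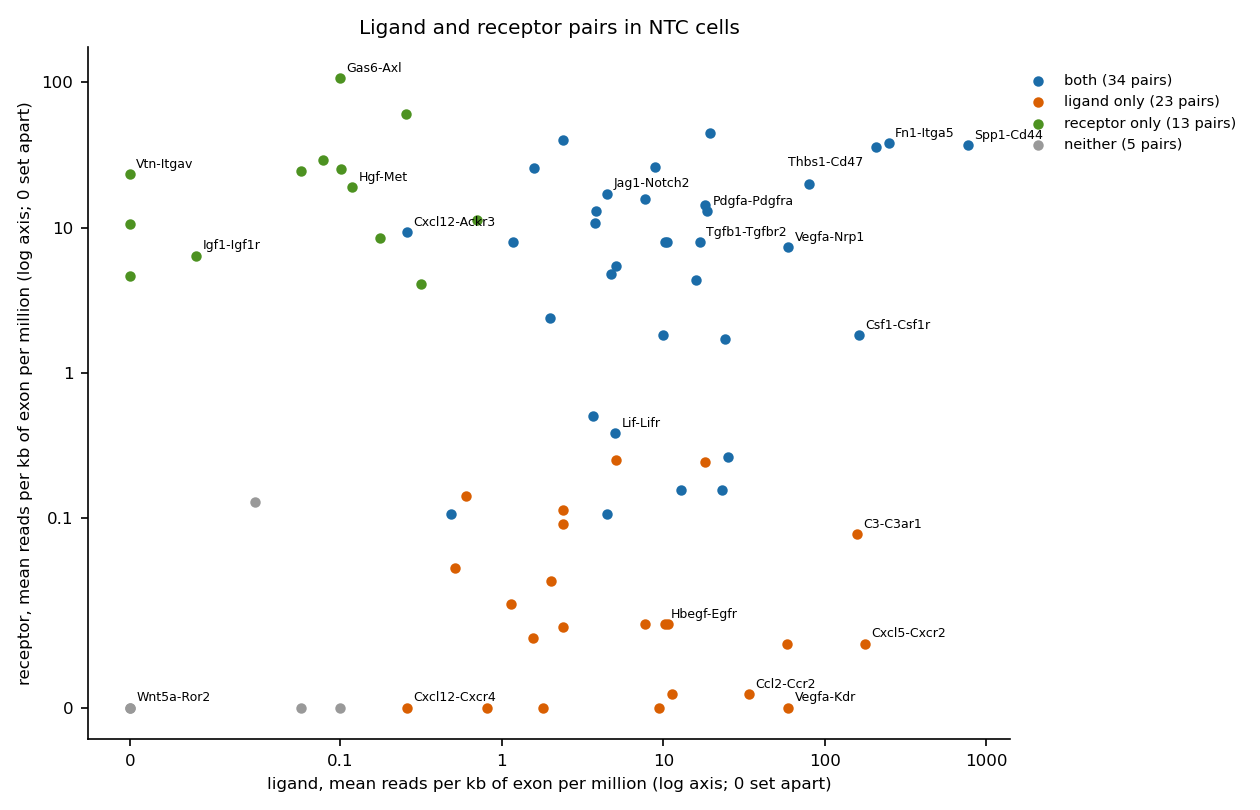
Mean per-length level of the ligand (x axis) against that of the receptor (y axis), in CPM per kilobase of exon on log scales with 0 set apart, for 75 pairs coloured by which partner was expressed. Points at the lower right are ligands whose paired receptor was not expressed, such as Cxcl5 with Cxcr2, and points at the upper left are receptors whose paired ligand was not expressed, such as Axl with Gas6.

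Cell cycle genes were expressed throughout. All 40 of 40 listed genes passed 1 CPM in each library, as did 51.5% of all protein-coding genes. The median per-length level of the 40 was 28.5, against 8.44 over expressed protein-coding genes. The replication clamp Pcna stood at 409.5, 371 and 384 CPM, the helicase subunits Mcm5 and Mcm4 at 319.5, 294 and 295 and 248, 230.5 and 219, and the ribonucleotide reductase Rrm2 at 174, 153 and 145. For mitosis, Top2a stood at 618, 584 and 518, Mki67 at 447, 453 and 381, Ccna2 at 346, 345 and 328 and Aurka at 133, 144 and 130.5 CPM. The summed level of the 40 genes was 7190, 7000 and 6730 CPM, lowest in library 3, where Top2a and Mki67 were lowest as well. Ccnd1 had 504, 511 and 486 CPM (23% antisense overlap), and per length it was 20.6 to 25.4 times Ccnd2. The name dormant given to these cells thus went with expression of every listed cell cycle gene in culture, and the share of cells in cycle was not measured.

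Inhibitors of the cell cycle were present at the same time. Of 7 CDK inhibitors 6 were expressed (85.7%, against 51.5% of all protein-coding genes). Cdkn1b stood at 224, 238 and 227 CPM, Cdkn2c at 96.8, 97.6 and 97.0, Cdkn2a at 56.7, 54.0 and 60.5, Cdkn1a at 21.6, 27.3 and 22.8 and Cdkn2b at 12.4, 17.8 and 24.0. Per length, Cdkn1b (50.5 ± 1.6) and Cdkn2a (48.7 ± 2.8) were highest and Cdkn1a (6.73 ± 0.85) the lowest of the expressed 6. Cdkn2b was the most variable of them, with library 3 above and library 1 below, and Cdkn1c was silent. Per length, Mki67 was 0.759 to 0.902 of Cdkn1b. The retinoblastoma gene Rb1 stood at 52.2 ± 2.8 CPM, with Rbl1 at 83.8 ± 5.6 and Rbl2 at 78.8 ± 1.5 (21% antisense overlap). Of 14 tumour suppressor genes all were expressed, against 51.5% of all protein-coding genes. Among them were Trp53 at 35.2, 35.5 and 41.3 CPM, and, next to each other in the genome, Cdkn2a and Mtap (152 ± 2.2 CPM). Of 13 oncogenes 11 were expressed (84.6%, against 51.5%). Myc stood at 101, 94.3 and 105 CPM and Nras at 186, 186 and 183, and Mycn was silent.

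Of 25 factors linked to tumour dormancy in the literature 17 were expressed (68.0%, against 51.5% of all protein-coding genes). Of the others 3 were trace and 5 were silent. Thbs1, Axl, Cdkn1b and Ndrg1 (167, 202 and 188 CPM) were the highest per length. Mapk14 (p38 alpha) stood at 113, 121 and 122 CPM and Nr2f1, a nuclear receptor that marks dormant cells in other models, at 10.9, 7.66 and 11.7 CPM. Lifr was low at 3.92, 4.36 and 4.26 CPM, and Bmp7, Cxcr4, Dkk1, Wnt5a and Ror2 had no read. The list thus held abundant members, such as Thbs1 at a per-length level of 206 ± 4.0, beside silent ones.

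Genes of antigen presentation split by class. All 7 MHC class I genes were expressed, with B2m at 975, 981 and 1094 CPM, H2-D1 at 464, 459.7 and 481 and H2-K1 at 217, 226 and 254. B2m and H2-K1 were highest in library 3. Class I heavy chain genes are close copies, so the split among them is uncertain. None of 5 MHC class II genes was expressed, with Cd74 at 0.600 ± 0.21 CPM and H2-Eb1 silent. Of 10 checkpoint ligands 6 were expressed (60.0%, against 51.5% of all protein-coding genes). Cd47, the signal against engulfment, led per length at 35.7 ± 1.7, and Cd274, the ligand of the checkpoint receptor PD-1, was low at 1.77, 1.98 and 2.25 CPM.

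Most Hox genes were silent. Of the 39 Hox genes, which mark position along the body axis, 9 were expressed (23.1%, against 51.5% of all protein-coding genes). Of the others 1 was trace and 29 were silent. All 9 expressed genes lay in HoxA, and within that cluster Hoxa11 and Hoxa13 had 0 reads. Hoxb4 had 1 read, and the other HoxB genes and all of HoxC and HoxD were silent. Hoxa5 stood at 46.7, 49.3 and 49.97 CPM, Hoxa7 at 47.2, 46.4 and 46.2 (20% antisense overlap) and Hoxa3 at 22.9, 20.5 and 23.9 (25% antisense overlap), while Hoxa9 was at 1.77, 1.72 and 2.13 CPM. Hoxa5 and Hoxa7 were steady over the 3 libraries, and Hoxa10 ranged from 10.4 to 16.8 CPM. The upstream windows of Hoxa5 (chr6:52204588-52204837, minus strand) and Hoxa13 (chr6:52260881-52261130, minus strand) are shown as an expressed and a silent gene of the same cluster. Capitals mark each CG, the dinucleotide that can be methylated.
Hoxa5: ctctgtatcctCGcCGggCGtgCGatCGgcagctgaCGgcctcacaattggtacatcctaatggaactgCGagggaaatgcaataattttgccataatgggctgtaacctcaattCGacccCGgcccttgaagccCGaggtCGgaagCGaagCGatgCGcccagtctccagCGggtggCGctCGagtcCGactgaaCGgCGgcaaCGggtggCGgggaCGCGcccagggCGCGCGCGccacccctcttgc
Hoxa13: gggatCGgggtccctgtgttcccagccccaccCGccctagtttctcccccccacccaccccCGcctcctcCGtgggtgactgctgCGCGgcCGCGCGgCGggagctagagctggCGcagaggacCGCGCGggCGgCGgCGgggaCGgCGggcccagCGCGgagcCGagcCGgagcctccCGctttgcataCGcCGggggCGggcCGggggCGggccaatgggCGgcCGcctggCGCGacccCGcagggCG
Both windows are rich in CG, with 28 in Hoxa5 and 35 in Hoxa13, against a median of 10 over all 16512 windows. The ratio of CG to the number its C and G content would give (1 meaning no depletion) was 1.11 for Hoxa5 and 0.875 for Hoxa13. Over the Hox genes with a window the median ratio was 0.466 for the 7 expressed and 0.637 for the 14 silent genes. Methylation was not measured here.

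Over all protein-coding genes with a window, the median CG ratio was 0.202 for the 4963 silent genes, 0.325 for the 2632 trace genes, 0.586 for expressed genes under 10 CPM, 0.758 at 10 to under 100 CPM, 0.814 at 100 to under 1000 CPM and 0.772 for the 47 genes at 1000 CPM or more. TATAAA between 45 and 16 bases before the start was in 2.89% of all windows, in 5.68% of those of silent genes, in 3.76% of those of trace genes, and in 2.35, 0.687, 1.13 and 6.38% of those of expressed genes from the lowest to the highest of these levels. The 6.38% stands for 3 of 47 windows. Among the secreted factors it was in 25 of 174 windows (14.4%), of which 7 of 61 for expressed genes and 9 of 54 for silent ones. A window without the letters says only that they are not in these bases.

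Imprinted genes, which are read from 1 parental copy, were mostly silent, against 31.5% of all protein-coding genes, with 14 of 23 at 0 reads. These included Igf2, Dlk1, Peg10, Ndn, Magel2 and Snrpn of the paternally expressed genes and H19, Meg3, Cdkn1c, Grb10, Ascl2 and Rian of the maternally expressed ones. Reads falling on more than 1 gene were not counted, so 0 reads are uncertain for a gene that shares exons with another. Expressed were Gnas (1386 ± 58.2 CPM, 22% antisense overlap), Impact (106 ± 4.4), Igf2r (43.6 ± 2.3) and the long noncoding Kcnq1ot1 (63.1 ± 6.9). Xist, the RNA that coats an inactive X chromosome, stood at 47.9, 46.5 and 39.0 CPM, from 378, 352 and 311 reads, and was lowest in library 3. The Y-linked Ddx3y, Kdm5d, Uty and Eif2s3y had 0 reads.

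By gene family, 115 families had 20 or more genes sharing a symbol stem. The most silent were those of differentiated tissues: all 22 alpha-defensins (Defa), all 22 major urinary proteins (Mup), 20 of 21 late cornified envelope genes (Lce), 32 of 34 Rhox homeobox genes, 1061 of 1135 olfactory receptors (Olfr), 53 of 57 keratin-associated proteins (Krtap), 24 of 26 kallikreins (Klk) and 300 of 331 vomeronasal receptors (Vmn). The families most fully expressed were those of the cell's basic machinery: Mediator (Med, 30 of 30), mitochondrial ribosomal proteins (Mrps, 29 of 29, and Mrpl, 48 of 49), RNA polymerase subunits (Polr, 28 of 28), centrosomal proteins (Cep, 35 of 36), vacuolar sorting proteins (Vps, 34 of 35), general transcription factors (Gtf, 22 of 23) and the Rps stem (42 of 44), which holds small ribosomal subunit proteins and other genes such as ribosomal S6 kinases. Families share near-identical copies, and reads that align to several places were not counted, so a silent copy in Mup, Defa or Vmn is uncertain.

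The common biological coefficient of variation, the spread beyond counting error estimated by edgeR over 13359 genes, was 0.0416. Among the 9935 genes whose mean reached 10 CPM, the median ratio of observed to counting variance was 1.28, and 2121 genes (21.3%) were above 3. The median coefficient of variation was 5.53%, and 80 genes were above 20%. The highest ratios belonged to abundant genes, whose counting error is small: Eef1a1, Fth1, Hsp90aa1, mt-Cytb, Fn1, Hspa5 and mt-Nd4. Library 3 had the highest Eef1a1 and Fth1 (3604, 3590 and 3977 CPM) and the lowest Hsp90aa1 (2911, 2745 and 2546) and Hspa5 (2194, 2053 and 1914). Gm42418, a noncoding gene with 99.51% of its exon bases under a gene on the other strand, ranged from 715.7 to 925.6 CPM. At the other end, Padi1 had 190, 182 and 192 reads, which is 24.0 CPM in each library, with 31.97% antisense overlap. Ccdc9b, Kctd15, Pigs and Ccdc174 were the next least variable, with coefficients of variation of 0.0587 to 0.189%.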

How the data were processed

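Per the labels' protocols, total RNA was isolated on an automated Maxwell system with DNase treatment, and libraries were run on a BGISEQ-500. Per the submitters' processing notes, the authors used STAR, HTSeq and the mouse build mm10 (GRCm38). No version, annotation release or strand setting is given in the sources used here. The deposited values are raw counts of reads per gene.

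Of each file's records, 51.1 to 51.6% were assigned to no gene, 0.863 to 0.893% were ambiguous and 11.2 to 11.6% aligned to several places. The 5 summary lines that hold these were left out. Ambiguous records fall on more than 1 gene, so a gene that shares exons with another may be undercounted. Of 55335 identifiers 55154 matched GENCODE M21, which gave names, coordinates and union exon lengths, and promoter sequences are RefSeq's (GRCm38.p6). Antisense overlap is given where at least 20% of an expressed list gene's exon bases lie under a gene on the other strand. With no strand setting given, reads of the 2 genes may be mixed, and how far is not known. At these depths 1 read was 0.125 to 0.132 CPM, and molecular identifiers are not mentioned, so limits cover counting error only. A ratio within a library needed at least 10 reads of both genes.

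There was no contrast and no test. The coefficient of variation between libraries was estimated in R 4.3.3 with edgeR 4.0.16 (estimateDisp, intercept only, TMM factors, filterByExpr with a minimum count of 10), a step tested on simulated data. Tables were made with Python 3.11.15 and pandas 2.3.3. Alternatives were other expression limits, TMM or DESeq2 1.42.0 factors, totals without mitochondrial genes, per-length limits, genes free of overlap on the other strand, transcript lengths and leaving out each library.

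The members and the 26 gene lists (950 genes) were chosen with earlier results of these data known. Named genes are the 20 highest by CPM and per length, and from each list and role up to 4 highest per length and up to 6 silent members, or any member of roles of 12 genes or fewer. To these come expressed markers of other cell types, the genes of the ratios and of the 75 ligand and receptor pairs, the 8 most and 5 least variable genes, Med4, and the 8 most silent and 8 most expressed families. Others were named after their values were seen: Cdh2, Dcn, Lum, Nid1, Nid2, Lama2, Trp53, Nr2f1, Mapk14, Bmp6, Lox, Loxl1, Loxl2, P4ha3 and the genes whose promoters are shown. A few genes of the lists are counted but not reported by name here.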

Additional observations from a re-analysis of the deposited data

How the results depend on the processing

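No paired analysis was possible because the values come from 1 group and from no test between groups. The number of genes expressed in NTC cells was 13799 in the main setting, 12602 to 15087 under limits of 2 and 0.5 CPM, 12911 at 1 CPM per kilobase of exon, and 13976 to 14036 when each library was left out. It was 8559 when only the 46070 genes without exon overlap on the other strand were considered, where fewer genes enter by construction. The number of silent genes in NTC cells was 30419, against 28249 to 36206 under the alternatives. Expressed luminal and epithelial markers numbered 7 to 12 and expressed mesenchymal markers 20 to 25 under all alternatives run. The share of reads in the 50 most abundant genes was 10.6% with mitochondrial genes left out of the total, against 13.6%. The biological coefficient of variation among NTC libraries was 0.0319 to 0.0493 with 1 library left out, and the lowest value was without library 3. The cause was not tested. Of the 494 expressed list genes none moved by over 1.5 times with TMM factors, DESeq2 factors or a library left out, and 106 did so when the longest transcript replaced the union of exons, with a median ratio of 1.19 and a highest of 3.19. Levels near 1 CPM rest on about 8 reads a library, and a gene with fewer than 3 reads over the 3 libraries cannot be told from one at 0.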

Other observations

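Beside protein-coding genes, long intergenic noncoding RNA genes were rarely expressed, with 337 of 5621 (6.0%), and they took 0.671% of the gene reads. Genes annotated as antisense were expressed in 888 of 2959 cases (30.0%) and took 1.13%. With no strand setting given, their reads may be mixed with those of the genes on the other strand. Processed pseudogenes were expressed in 388 of 9938 cases (3.9%).

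Silent protein-coding genes lay in runs along the chromosomes, where neighbours in genome order all had 0 reads. The longest run was 163 genes on chromosome Y, from 2720339 to 90754821. On chromosome 7 a run of 98 genes between Nlrp9b and Vmn1r177 held 60 vomeronasal receptors, and on chromosome 2 a run of 80 genes held 79 olfactory receptors. A run of 59 genes on chromosome 8, from Defb40 to Defb11, held the 22 alpha-defensins, and a run of 40 genes on chromosome 16, from Cldn17 to Krtap11-1, held 24 keratin-associated proteins. The HoxD cluster was part of a run of 11 genes on chromosome 2 from Evx2 to Hoxd1, 74652991 to 74765142. Runs hold many near-identical copies, for which reads that align to several places were not counted. The bounds of these runs and the genes in them were chosen after their values were seen.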
